A study of Mus musculus with 6 samples.

Results

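The transcripts described here are those of 10 chemokines that fibroblasts can make: Ccl2, Ccl5, Ccl7, Ccl8, Ccl20, Cxcl1, Cxcl5, Cxcl10, Cxcl12 and Cx3cl1. They were taken from the count table by exact gene name, and all 10 were found among its 50763 genes. Chemokines are small secreted proteins that guide leukocytes along concentration gradients by binding G protein-coupled receptors on the moving cell. They are classed as CC, CXC or CX3C by the spacing of their first cysteines. Fibroblasts make most of the inflammatory ones only after signals such as interleukin-1, tumour necrosis factor or interferons, which act through NF-kB, STAT and IRF factors, whereas Cxcl12 is a homeostatic product of stromal cells.

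Transcripts were measured by RNA sequencing in mouse embryo fibroblasts (MEFs), mesenchymal cells grown out of a dissociated embryo, isolated at embryonic stage E13.5 from C57BL/6J mice and cultured briefly. One group of 3 libraries came from wild-type (WT) mice and the other group of 3 from mice with the K68R knock-in, made by CRISPR, which replaces a lysine of the mitochondrial superoxide dismutase SOD2 by arginine. The series title calls this allele a mimic of the non-acetylated enzyme. The labels name no agent given to either group and do not say how many embryos or litters a library or genotype represents.

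The comparison of K68R with WT asks how the fibroblast transcriptome differs with the allele. Library totals ran from 26200088 to 40691447 read pairs, so 3 counts, the floor used here, are worth 0.0728 to 0.116 CPM (counts scaled to the library total after TMM normalization). Sod2 itself was at 45.6 to 48.9 CPM in K68R against 68.9 to 71.8 CPM in WT, and these counts do not distinguish the knock-in codon. Of 16730 genes tested, 81.4% differed at an adjusted p under 0.05 (edgeR quasi-likelihood test, Benjamini-Hochberg over all genes), and libraries of a genotype were close to each other, with a biological coefficient of variation of 2.19%. That call alone therefore says little about any gene, so the share of genes at least 2-fold lower in K68R, 7.57%, is used beside it. All 10 fibroblast markers examined were detected in every library, with 4 called higher, 5 lower and 1, Vim, not called. Their summed levels were 10774 to 10881 CPM in K68R against 7186 to 7279 CPM in WT. Col1a1 and Col1a2 were higher by 14.8 and 3.94-fold, at 2445 and 2408 CPM in K68R against 165 and 611 CPM in WT. Pdgfra, Lum, Dcn, Thy1 and Fap were lower, by 5.56, 4.41, 4.35, 3.06 and 1.91-fold. With an adjustment for exon length and GC content, 4 of the 10 were higher and 6 lower. Col1a1 and Col1a2 were then higher by only 2.65 and 1.33-fold, Vim was called higher, and Pdgfrb turned from higher to lower. Genotype and any difference in how the cultures were prepared cannot be told apart.

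Of the 10 chemokines, 6 were lower in K68R, all of them at least 2-fold, 1, Cx3cl1, was called higher by a small amount, 2, Ccl8 and Cxcl12, were not called and 1, Ccl20, had too few counts to be tested. The background was 40.5% of genes lower, 40.8% higher, and 7.57% at least 2-fold lower. Ccl2, Ccl7, Cxcl1, Cxcl5, Cxcl10 and Ccl5 fell by 5.65-fold to 38.5-fold, while Cxcl12, the homeostatic member, stood at nearly the same CPM in both genotypes. Adjusting for exon length and GC content turned Cx3cl1 and Cxcl12 to lower. In these 6 genes the 3 K68R values lay below all 3 WT values, an arrangement found in 41% of genes tested. Over the 9 tested members the log2 fold change (K68R over WT) had a median of -2.82, against -0.01 for all genes tested. Ccl5 reached the minimum count of the test in no K68R library, so it could be tested only because it was high in WT. Without Ccl5, 5 of 8 tested members were lower, all at least 2-fold, with a median of -2.66. Of the 15931 genes that reached the minimum in at least 1 library of each genotype, 41.4% were lower and 6.86% at least 2-fold lower.

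**Figure D1:**
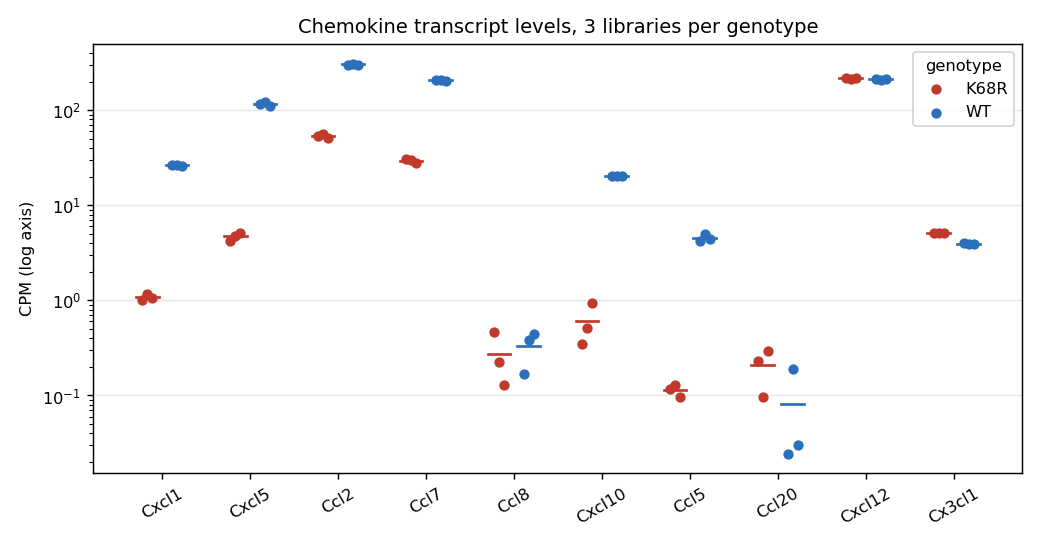
Level of each of the 10 chemokines in CPM on a log axis; each point is 1 library, red for K68R and blue for WT, and each short line is the mean of 3 libraries. Cxcl1, Cxcl5, Ccl2, Ccl7, Cxcl10 and Ccl5 form separate groups by genotype, whereas Ccl8 and Ccl20 overlap and Cxcl12 lies between 210.7 and 219.0 CPM in all 6 libraries.

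Cxcl1 and Cxcl5 attract neutrophils through the receptor CXCR2. Cxcl1 (build mm39, chr5:91039104-91040980, plus strand, 4 exons) was at 1.01, 1.15 and 1.07 CPM in the K68R libraries and at 26.4, 26.7 and 25.7 CPM in the WT libraries. Every K68R library was thus far below every WT library. The log2 fold change of Cxcl1 was -4.60 with a standard error of 0.103 (adjusted p = 2.85e-49, edgeR), a 24.2-fold lower level. Cxcl5 (chr5:90907157-90909484, plus strand, 4 exons) was at 4.26, 4.74 and 5.15 CPM in K68R and at 115.9, 121.4 and 111.8 CPM in WT. The groups again did not overlap, and the log2 fold change of -4.61 with a standard error of 0.0541 (adjusted p = 2.45e-66, edgeR) was a 24.5-fold lower level.

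The falls of Cxcl1 and Cxcl5 could not be told apart within counting error. Within a library, the counts of Cxcl5 were 4.23, 4.11 and 4.82 times those of Cxcl1 in K68R and 4.39, 4.55 and 4.34 times in WT. This ratio does not depend on how libraries are scaled to each other, and its values in the genotypes overlapped (two-sided exact permutation test over 20 assignments, p = 0.9, adjusted over 3 ratios 1). The ratio in K68R was 0.992 times that in WT, with an exact 95% interval of 0.789 to 1.26 that covers counting error only.

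The 250 bases upstream of the Cxcl1 start (RefSeq, build GRCm38.p6, chr5:90890995-90891244, plus strand) are shown because they hold letters that match the NF-kB consensus, the factor named above as an inducer. Capitals mark these matches, searched on both strands. The matches overlap and lie 71 to 61 bases before the start.
Cxcl1: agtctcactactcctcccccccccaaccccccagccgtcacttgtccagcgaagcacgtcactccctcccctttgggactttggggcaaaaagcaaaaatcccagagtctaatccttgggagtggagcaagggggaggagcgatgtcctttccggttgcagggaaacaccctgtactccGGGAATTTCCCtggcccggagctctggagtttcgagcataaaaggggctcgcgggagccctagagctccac

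Ccl2 and Ccl7 attract monocytes through the receptor CCR2 and are neighbours on chromosome 11. Ccl2 (mm39, chr11:81926403-81928278, plus strand, 3 exons) was at 53.9, 56.0 and 51.3 CPM in K68R and at 302.2, 310.5 and 298.3 CPM in WT. Its values did not overlap, and its log2 fold change was -2.50 with a standard error of 0.0275 (adjusted p = 5.34e-68, edgeR), a 5.65-fold lower level. Ccl7 (chr11:81936538-81938351, plus strand, 3 exons) was at 30.4, 29.7 and 28.0 CPM in K68R and at 207.7, 208.9 and 204.7 CPM in WT. It too was separated by genotype, with a log2 fold change of -2.82 and a standard error of 0.0321 (adjusted p = 1.70e-67, edgeR), a 7.06-fold lower level. These falls were smaller as folds than those of Cxcl1 and Cxcl5, but both genes were the most abundant of the 10 per length in both genotypes.

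The ratio of Ccl7 to Ccl2 counts within a library was 0.564, 0.531 and 0.545 in K68R and 0.687, 0.673 and 0.686 in WT. All 3 K68R ratios were lower than all 3 WT ratios, and the two-sided exact permutation p was 0.1 (0.3 after adjustment over 3 ratios), as low as this number of libraries can go. The ratio in K68R was 0.799 times that in WT (exact 95% interval 0.759 to 0.841, counting error only).

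Ccl8, a CC chemokine 79.6 kb from Ccl2 in the same cluster, did not follow its neighbours. It had 12, 7 and 4 counts in the K68R libraries and 7, 12 and 15 in the WT libraries, and these values overlapped. The log2 fold change of Ccl8 was -0.29 with a standard error of 0.473 (adjusted p = 0.570, edgeR). With 23 counts against 34 in all, the level in K68R was 0.816 times that in WT with an exact 95% interval of 0.459 to 1.43, so a fall as large as that of Ccl2 lay outside the counting error.

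Cxcl10 and Ccl5 attract T cells, Cxcl10 through CXCR3 and Ccl5 through several CC receptors, and both are induced by interferons and by NF-kB. Cxcl10 (mm39, chr5:92494497-92496748, minus strand, 4 exons) had 9, 16 and 29 counts in the K68R libraries and 839, 640 and 678 in the WT libraries. That was 0.349, 0.513 and 0.940 CPM against 20.4, 20.5 and 20.2 CPM. No K68R value came near the WT values, although the K68R libraries varied by 50.8% (coefficient of variation) and the WT libraries by 0.590%. The log2 fold change of Cxcl10 was -5.04 with a standard error of 0.132 (adjusted p = 1.48e-44, edgeR), and the summed counts gave a 33.1-fold lower level with an exact 95% interval of 25.3 to 44.2 (counting error only).

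Ccl5 (chr11:83416604-83421344, minus strand, 3 exons) had 3, 4 and 3 counts in the K68R libraries, at or just above the floor of 3 counts, and 174, 156 and 148 in the WT libraries. In CPM these were 0.116, 0.128 and 0.0972 against 4.22, 4.99 and 4.42. Its level was 39.6-fold lower by summed counts, with an exact 95% interval of 21.4 to 83.1, and the fitted log2 fold change was -5.27 with a standard error of 0.272 (adjusted p = 4.87e-28, edgeR). The ratio of Ccl5 to Cxcl10 counts was 0.333, 0.25 and 0.103 in K68R and 0.207, 0.244 and 0.218 in WT, and these values overlapped. The two-sided exact permutation test gave p = 1 (1 after adjustment over 3 ratios), and the ratio in K68R was 0.836 times that in WT with a wide exact 95% interval of 0.377 to 1.67.

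The 250 bases upstream of the Cxcl10 start (RefSeq, GRCm38.p6, chr5:92348890-92349139, minus strand) are shown because they hold letters matching the motifs of both NF-kB and interferon-activated factors. From the left, capitals mark the IRF-type repeat (GAAA, any 2 bases, GAAA), then an NF-kB match, then overlapping NF-kB matches, then TGANTCA, the AP-1 motif. They start 213, 159, 104 and 74 bases before the start of the gene.
Cxcl10: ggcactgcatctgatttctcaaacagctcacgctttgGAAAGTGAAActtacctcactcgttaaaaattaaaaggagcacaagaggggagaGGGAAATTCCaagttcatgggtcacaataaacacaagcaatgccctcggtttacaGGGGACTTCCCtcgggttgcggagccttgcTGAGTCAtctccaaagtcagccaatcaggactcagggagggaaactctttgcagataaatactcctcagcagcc

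Ccl20, the ligand of CCR6, was barely detected. It had 6, 3 and 9 counts in the K68R libraries and 1, 6 and 1 in the WT libraries, so that WT libraries 1 and 3 lay under the floor of 3 counts. The summed 18 counts against 8 gave a ratio of K68R to WT of 2.71 with an exact 95% interval of 1.12 to 7.22, which covers counting error only, and the libraries of the genotypes overlapped. When genes of low counts were kept in the edgeR fit, the log2 fold change of Ccl20 was 1.34 with an adjusted p = 0.149.

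Cxcl12, the ligand of CXCR4 that retains and guides stem cells and lymphocytes, was the member with the most counts in K68R. Its gene (mm39, chr6:117145496-117158329, plus strand) was at 216.9, 215.1 and 219.0 CPM in K68R and at 213.6, 210.7 and 210.9 CPM in WT. The K68R values lay just above the WT values, by a log2 fold change of 0.03 with a standard error of 0.0221 (adjusted p = 0.139, edgeR), so Cxcl12 was not called. Its 7161 exonic bases are the union of several isoforms, and fold changes in these libraries varied with exon length and GC content. With offsets in the model that remove a smooth surface over both, Cxcl12 was called lower, with a log2 fold change of -0.56 (adjusted p = 1.06e-32, edgeR). Cxcl12 was also called lower with upper quartile normalization (-0.08, adjusted p = 9.35e-04, edgeR) and higher with a filter of 1 CPM (0.06, adjusted p = 0.0103, edgeR), so the data give it no direction, and none of these values reached 2-fold.

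The upstream 250 bases of Cxcl12 (RefSeq, GRCm38.p6, chr6:117168285-117168534, plus strand) are shown for contrast with those of Cxcl1 and Cxcl10. They hold no match to the motifs searched and so no capitals, which says only that these letters are not in this window.
Cxcl12: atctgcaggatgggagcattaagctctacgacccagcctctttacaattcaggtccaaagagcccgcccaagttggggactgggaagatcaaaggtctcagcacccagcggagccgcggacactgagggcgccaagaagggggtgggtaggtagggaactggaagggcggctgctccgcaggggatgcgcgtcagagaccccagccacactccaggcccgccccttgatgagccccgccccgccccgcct

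Upstream windows of 250 bases were found for 6 of the 10 genes, and Ccl2, Ccl5, Ccl7 and Cxcl5 are without one. The NF-kB consensus matched in 3 of the 6 (Ccl20, Cxcl1 and Cxcl10) and in 7.25% of all 32851 windows. The IRF-type repeat matched in Cxcl10 alone of the 6, and in 2.98% of all windows. TGANTCA matched in Cxcl10 alone of the 6, and in 6.75% of all windows. TTCNNNGAA, the motif of STAT dimers, matched in 0 of the 6 and in 7.02% of all windows. The windows of Ccl8 and Cx3cl1 held none of these matches.

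Cx3cl1, or fractalkine, is made as a membrane protein that tethers cells bearing CX3CR1 and is released by the proteases ADAM10 and ADAM17. It was at 5.08, 5.06 and 5.09 CPM in K68R and at 3.98, 3.90 and 3.97 CPM in WT. The K68R values were all higher, by a log2 fold change of 0.36 with a standard error of 0.120 (adjusted p = 0.00515, edgeR), or 1.28-fold. Under the length and GC adjustment the sign turned, to -0.50 (adjusted p = 1.94e-04, edgeR), so the data give no direction for Cx3cl1 that holds under both. Its gene (mm39, chr8:95498808-95509055, plus strand) shares 50.3% of its exonic bases with Gm51543 on the minus strand, and read pairs there could be assigned to neither gene. Gm51543 itself had 34 counts in K68R and 27 in WT.

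Chemokine genes are short, and the 6 that fell span 532 to 1656 exonic bases. With the same offsets these 6 stayed lower, by 3.90-fold (Ccl2) to 25.9-fold (Ccl5), against 9.32% of 15667 genes at least 2-fold lower in that fit. None of the 6 moved by more than 1.49 times. The division of the 10 into 6 that fell by 2-fold or more and the rest was thus the same in both fits.

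**Figure D2:**
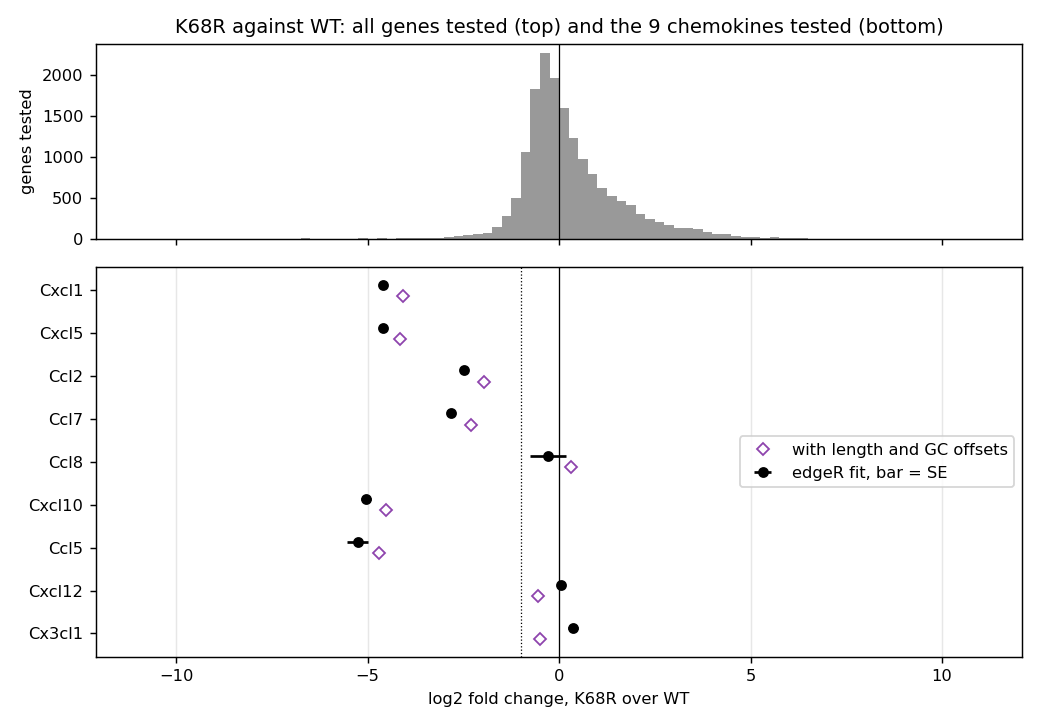
Top, number of genes tested in each interval of log2 fold change (K68R over WT); bottom, the 9 tested chemokines, black circles for the edgeR fit with bars of 1 SE, open diamonds for the fit with length and GC offsets, and a dotted line at a 2-fold fall. Black circles of 6 genes lie between -5.27 and -2.50, and the diamonds of Cxcl12 and Cx3cl1 lie left of 0 where the circles lie right of it.

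Per length, the order of the levels was led by the same pair of genes in both genotypes. In RPKM (CPM divided by exonic length in kilobases) Ccl2 was at 66.7 ± 2.93 in K68R and 376.7 ± 7.72 in WT, and Ccl7 at 36.7 ± 1.56 and 258.6 ± 2.73 (SD, n = 3). Below these the order differed. In WT it ran Cxcl5 (70.3 ± 2.92), Cxcl12 (29.6 ± 0.228), Cxcl1 (27.5 ± 0.508), Cxcl10 (18.5 ± 0.109), Ccl5 (8.54 ± 0.751), Cx3cl1 (1.26 ± 0.0132), Ccl8 (0.653 ± 0.285) and Ccl20 (0.102 ± 0.119), and no neighbours in it overlapped. In K68R, Cxcl12 (30.3 ± 0.277) followed Ccl7 and came before Cxcl5 (2.85 ± 0.270), Cx3cl1 (1.61 ± 0.00388) and Cxcl1 (1.13 ± 0.0770). Cxcl10 (0.545 ± 0.277), Ccl8 (0.534 ± 0.338), Ccl20 (0.258 ± 0.125) and Ccl5 (0.214 ± 0.0294) came last there, and each of these overlapped the next in order. Ccl5 was thus above Cx3cl1, Ccl8 and Ccl20 in WT and last in K68R, though not apart from Ccl20.

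The summed RPKM of the 10 genes was 142.0, 143.6 and 136.7 in K68R and 789.7, 806.9 and 778.4 in WT. Ccl2 held nearly the same share of that sum in both, 47.3 ± 0.942% in K68R and 47.6 ± 0.136% in WT (SD, n = 3). Cxcl12 held 21.5 ± 0.758% in K68R and 3.74 ± 0.0779% in WT. The shares of Cxcl5, 2.03 ± 0.234% against 8.87 ± 0.208%, and of Cxcl1, 0.801 ± 0.0519% against 3.47 ± 0.0184%, were smaller in K68R. These shares are a description and were not tested, and the share of Cxcl12 would be larger in both if a shorter isoform prevailed.

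**Figure D3:**
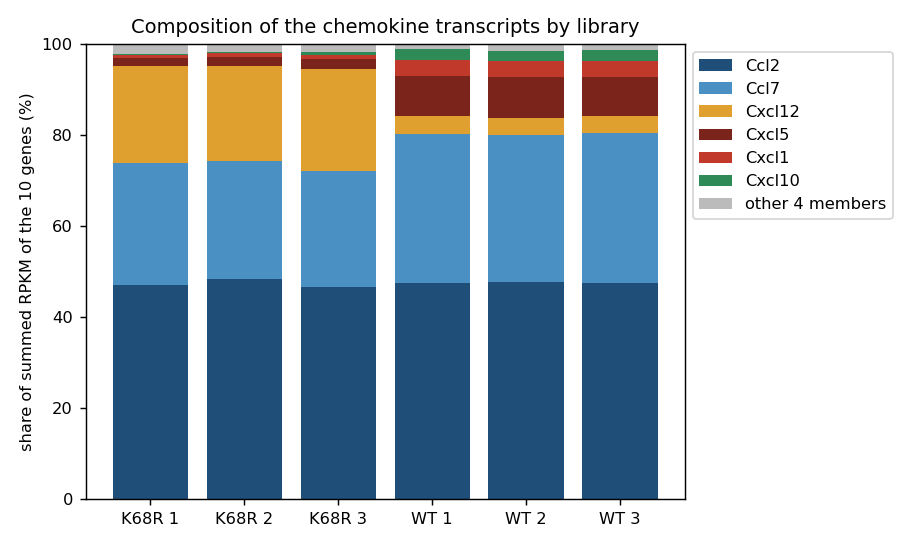
Share of each chemokine in the summed RPKM of the 10 genes, in percent, for the 3 K68R and 3 WT libraries; each stacked bar is 1 library. Ccl2 fills 46.6% to 48.4% of every bar, while Cxcl12 fills 20.9% to 22.4% of the K68R bars and 3.65% to 3.78% of the WT bars.

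Most of these genes lie in clusters with other chemokines. On chromosome 11, 11 chemokine genes lie within 1627 kb, 10 were tested, and 9 were lower and 1, Ccl8, was not called. Of the 9, Ccl5, Ccl11 and Ccl12 reached the minimum count in WT alone and could be tested only because they were high there. Without these 3, 6 of 7 were lower, 5 of them at least 2-fold, against 41.4% and 6.86% of genes that reached it in both genotypes. Ccl3 and Ccl4, the 2 called with the smallest falls, were no longer called with the offsets. Ccl11, or eotaxin, 22.3 kb from Ccl2, was at 0.161 ± 0.0565 CPM in K68R against 1.23 ± 0.170 CPM in WT (SD, n = 3), a log2 fold change of -2.91 (adjusted p = 1.29e-10, edgeR). Ccl12, 66.3 kb from Ccl2, had 0, 6 and 0 counts in K68R and 16, 20 and 11 in WT (log2 fold change -2.64, adjusted p = 1.30e-04, edgeR; adjusted p = 0.0543 with DESeq2). All K68R counts of Ccl12 came from library 2, so that without it no fold can be given, and without K68R library 3 its log2 fold change was -2.05. On chromosome 5, 10 lie within 1600.2 kb, and all 7 tested were lower. Cxcl2 and Cxcl3 reached the minimum count in WT alone, and without them 5 of 5 were lower, 4 of them at least 2-fold. Cxcl2, a CXCR2 ligand 144.6 kb from Cxcl5, had 0, 6 and 6 counts in K68R and 28, 27 and 22 in WT (log2 fold change -2.39, adjusted p = 2.90e-06, edgeR).

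**Figure D4:**
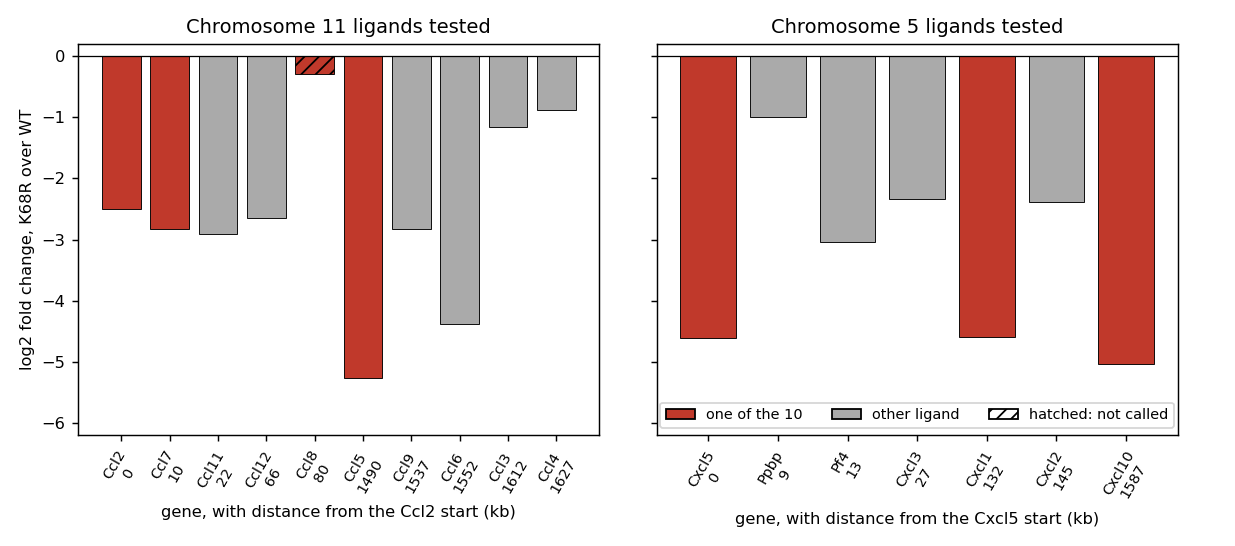
Log2 fold change (K68R over WT, edgeR) of the tested chemokine genes of chromosome 11 and chromosome 5, in genomic order with the distance in kb from the start of Ccl2 or Cxcl5 under each name; red bars are the genes described here, grey bars other chemokines, and a hatched bar was not called. All bars point down, and Ccl8 has the shortest, at -0.29, which is 0.32 with length and GC offsets.

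Of 28 other chemokine ligands, 15 were tested, of which 12 were lower, 8 of them at least 2-fold, 2 were higher and 1 was not called. Ccl11, Ccl12, Cxcl2 and Cxcl3, which reached the minimum count in WT alone, are among the 8, and without them 8 of 11 were lower, 4 of them at least 2-fold, with a median of -0.87. The corresponding shares of all genes are the 41.4% and 6.86% given above. Over all 15 the median log2 fold change was -1.16, against -0.01 over all genes tested, and in the fit with offsets -1.43 against -0.06. Fewer were called lower in that fit, with 10 lower, 2 higher and 3 not called. Ccl6, a CC chemokine of mouse myeloid cells, was at 0.359 ± 0.0783 CPM in K68R against 7.67 ± 0.321 CPM in WT (SD, n = 3), a log2 fold change of -4.38 (adjusted p = 6.02e-33, edgeR). Ccl9, a ligand of CCR1, was at 2.77 ± 0.288 and 19.9 ± 1.32 CPM, and Pf4, platelet factor 4, at 0.406 ± 0.119 and 3.31 ± 0.384 CPM (SD, n = 3).

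Of 23 chemokine receptors only 8 had enough counts to be tested, 2 higher, 4 lower and 2 not called, and 1 of the 4 reached the minimum count in WT alone. Cxcr4, which encodes the receptor of Cxcl12, was low and not called (1.38 ± 0.0593 CPM in K68R, 1.70 ± 0.412 CPM in WT, SD, n = 3; adjusted p = 0.215, edgeR), but was called lower, by -0.49, without WT library 1 (adjusted p = 0.0477, edgeR). Ackr3, which scavenges Cxcl12, was higher, at 26.6 ± 0.708 against 19.6 ± 0.750 CPM (SD, n = 3; log2 fold change 0.44, adjusted p = 7.13e-11, edgeR). Ccr1, a receptor of Ccl5 carried mainly by leukocytes, was lower, with a log2 fold change of -2.80 (adjusted p = 1.75e-17, edgeR). Cxcr6, the receptor of Cxcl16, was higher by 1.17 (log2; adjusted p = 3.20e-05, edgeR).

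Among 29 inducers and feedback genes of NF-kB, 26 were tested, with 11 higher, 11 lower and 4 not called, and a median log2 fold change of -0.06. These counts are near the shares over all genes tested, 40.8% higher and 40.5% lower. With the offsets 15 were lower, 5 higher and 6 not called, and the median was -0.21. Over all 15667 genes of that fit, 6612 were lower and 5269 higher. Il1r1, the receptor for interleukin-1, was 6.40-fold lower, at 26.0 ± 1.45 CPM in K68R against 166.7 ± 6.49 CPM in WT (SD, n = 3; adjusted p = 3.13e-60, edgeR), with no overlap. Its partner Il1rap was 2.85-fold lower (adjusted p = 1.60e-42, edgeR). Nfkbia, the inhibitor that NF-kB induces against itself, was lower by a log2 fold change of -0.50 (adjusted p = 1.78e-17, edgeR). Nfkb1 was 2.21-fold higher (adjusted p = 5.88e-37, edgeR). Rela and Nfkb2 were higher by 1.05 and 1.69 (log2), but lower by -0.35 and -1.54 with the length and GC offsets, so the data give no direction for these subunits that holds under both.

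Of 14 genes of interferon signalling, 13 were tested, with 10 lower, 5 of them at least 2-fold, 2 higher and 1 not called. The shares over all genes tested were 40.5% lower, 7.57% at least 2-fold lower and 40.8% higher. The median log2 fold change was -0.68. With the offsets 12 were lower and 1 higher, and the median was -0.89. Irf7, the factor that amplifies interferon production, was 7.18-fold lower, at 2.40 ± 0.214 against 17.2 ± 0.656 CPM, and Irf9, which completes the complex that binds interferon response elements, 3.76-fold lower, at 14.7 ± 1.52 against 55.5 ± 1.48 CPM (SD, n = 3; edgeR, adjusted p = 5.29e-38 and 5.37e-44). Irf1, which acts with NF-kB at interferon-induced genes, was 2.51-fold lower (adjusted p = 6.60e-31, edgeR). Tyk2, a kinase of the interferon receptor, was higher by 1.69 (log2), which became -0.21 with the offsets.

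Of 12 genes that process chemokines or control decay of their messages, 5 were higher, 5 lower and 2 not called. These counts too are near the 40.8% higher and 40.5% lower over all genes tested. Zfp36, or tristetraprolin, and Khsrp bind AU-rich messages and speed their decay, and Zfp36 was higher by 0.62 (log2; adjusted p = 2.67e-26) and Khsrp by 2.14 (adjusted p = 9.89e-61, edgeR), with 0.77 and 0.76 under the offsets. Zfp36l2, a relative of Zfp36, was higher by 1.37 (log2), or 0.72 with the offsets. Zc3h12a, the nuclease regnase-1, was higher by 0.92 (log2), which was 0.24 and no longer called with offsets (adjusted p = 0.0684, edgeR). Elavl1 and Auh of the same list were lower by -0.31 and -0.44 (log2), or -0.33 and -0.88 with the offsets. Zfp36l1, also a relative of Zfp36, was at 0.05 and not called, but at 0.20 and called higher with the offsets. Dpp4, which trims Cxcl10 and Cxcl12 at their ends, was lower by a log2 fold change of -0.85 (adjusted p = 1.15e-08, edgeR). The sheddase Adam17 was 1.5-fold lower (adjusted p = 3.42e-28, edgeR), and Adam10 was lower by -0.24 (log2) but at 0.05 with the offsets.

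**Figure D5:**
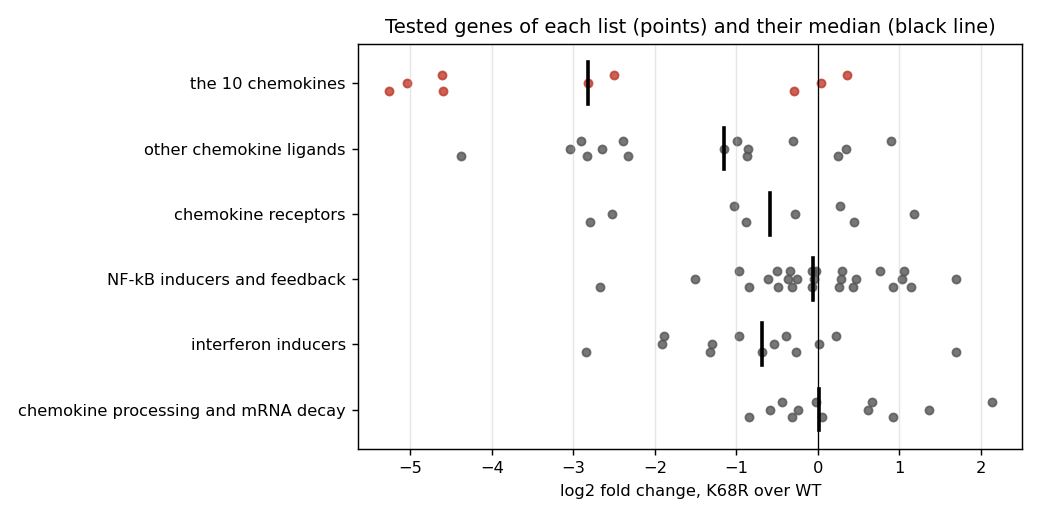
Log2 fold change (K68R over WT, edgeR) of each tested gene of 6 lists, 1 point per gene, with the list median as a black line; red points are the 10 chemokines, of which 9 were tested. The medians run from -2.82 for these chemokines to 0.02 for processing and decay genes.

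Cells other than fibroblasts can make several of these chemokines, and in a bulk sample fewer cells of a type and less RNA per cell cannot be told apart. For the marker lists that follow, the shares over all genes tested were 40.8% higher and 40.5% lower. Of 15 macrophage markers, 4 were higher, 5 lower, 5 not called and 1 untested, and their summed level was 183.3 to 188.4 CPM in K68R against 194.6 to 196.7 CPM in WT, with none at 0 in a genotype. With the offsets 7 were higher, 4 lower and 3 not called. Lyz2 was at 82.7 ± 3.03 and 100.4 ± 1.14 CPM and Cd68 at 16.5 ± 0.683 and 18.5 ± 0.815 CPM (SD, n = 3), which made both lower in K68R, but with the offsets both were higher, by 0.25 and 0.24 (log2), and Cd68 was not called without K68R library 3 (adjusted p = 0.0772, edgeR). Of 6 adipocyte markers, 5 were tested and these were lower, 4 of which reached the minimum count in WT alone. The summed level of the 6 was 3.76 to 4.89 CPM in K68R against 76.0 to 83.6 CPM in WT, and Plin1 and Lep were at 0 in all K68R libraries. Fabp4 was at 4.28 ± 0.554 and 56.4 ± 3.47 CPM, and Adipoq had 1 count in K68R and 1042 in WT.

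Of 8 epithelial markers, 6 were lower, 1 higher and 1 not called. Krt5 reached the minimum count in WT alone. Without it 5 of 7 were lower, 3 of them at least 2-fold, against 41.4% and 6.86% of genes that reached it in both genotypes. With the offsets 7 of the 8 were lower and 1 higher. The summed level of the 8 was 104.6 to 107.1 CPM in K68R against 98.7 to 101.8 CPM in WT. Krt19 made up most of that sum in K68R, at 80.8 ± 1.15 CPM, but not in WT, at 47.1 ± 1.65 CPM (SD, n = 3). Krt18 was lower in K68R. Krt14 and Krt5 had 15 and 5 summed counts in K68R against 669 and 419 in WT. Of 8 endothelial markers, 3 were higher and 0 lower, and their sum of 96.9 to 98.8 CPM in K68R against 25.5 to 27.8 CPM in WT was mostly Kdr (90.7 ± 1.20 and 20.4 ± 1.24 CPM, SD, n = 3), while Cldn5 was at 0 in all K68R libraries. With the offsets 2 of the endothelial markers were higher, 1 lower and 3 not called. Their median log2 fold change went from 0.61 to -0.22, and Vwf turned from 1.30 to -1.16. The 10 T cell and neutrophil markers summed to 0.232 to 1.39 CPM in K68R against 0.119 to 0.267 CPM in WT, with Cd3d, Cd8a and Trac at 0 in both. K68R library 3 stood apart, with 32 counts of Mpo and 8 of Elane, neutrophil granule genes. K68R libraries 1 and 2 had 0 counts of Mpo, and 0 and 2 counts of Elane. WT library 1 had 8 counts of Mpo and 0 of Elane, and WT libraries 2 and 3 had 0 of both. Without Mpo and Elane, K68R library 3 summed to 0.0972 CPM, the lowest of the K68R libraries. K68R library 3 held 29 of the 54 K68R counts of Cxcl10, and without it the log2 fold change of Cxcl10 was -5.52 (adjusted p = 4.70e-35, edgeR). The part of these cell types in the chemokine levels was not tested.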

How the data were processed

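The series holds 6 poly(A) RNA libraries of mouse embryo fibroblasts, grouped by genotype from their titles. The deposited table gives unnormalized counts per gene and library. Per the file headers, featureCounts 2.0.6 assigned read pairs to RefSeq exons of build mm39 and ignored strand, although the labels name a stranded kit. Per the submitters' processing notes, HISAT2 2.2.1 and SAMtools came before. The labels give an RNA integrity number above 4. The labels call the libraries biological replicates but name no embryo or culture, so p-values reflect just the scatter among these samples and that scatter may be technical. WT names end in an r that the labels do not explain. Within a genotype the chi-square per gene between 2 libraries was 1.88 to 2.32, more than sampling noise gives.

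Counts were tested in R 4.3.3 with edgeR 4.0.16 (filterByExpr, TMM, robust quasi-likelihood F test), with Benjamini-Hochberg adjustment over all genes tested and a threshold of 0.05; the steps were tested on simulated data. Intervals of count ratios are exact binomial or conditional, at 95%, and cover counting error only. Alternatives were DESeq2 1.42.0, limma-voom 3.58.1, other normalizations and filters, a replicate block, a test against 1.5-fold, leaving out each library, and 2 fits on length and GC content (mgcv 1.9.3). GC content came from GENCODE M21 transcripts joined by symbol, found for 93.6% of genes tested and 94.7% of those called. Named genes were the 10 chemokines, a set of partners always named, from each of 5 pathway lists up to 4 called genes of at least 1 CPM, taken by size of fold change, and the 2 most abundant of each of 6 marker lists; 2 genes that this rule names are not reported here. The members and lists were chosen with earlier results of these data known.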

Additional observations from a re-analysis of the deposited data

How the results depend on the processing

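All 6 chemokines called lower by at least 2-fold kept their direction and call in each of the alternatives that could test them; Ccl5 was not tested among short genes of low GC content. The number of chemokines called higher, 1 in the main analysis, was 0 with upper quartile normalization, 0 against a 1.5-fold bound, 0 with length and GC offsets, 0 among short genes of low GC content and 2 with a filter of 1 CPM; leaving out 1 library gave 1 to 1. Over all genes, 6855 were called against 1.5-fold (4365 higher, 2490 lower) and 2733 among short genes of low GC content (1346 higher, 1387 lower), where only 3987 were tested. Upper quartile normalization shifted all log2 fold changes by a median of -0.11, and short genes alone by 0.42.

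Among the genes picked by the naming rule, signs turned as follows (log2). With offsets, Ccl8 was at 0.32, Cxcl12 at -0.56, Cx3cl1 at -0.50, Adam10 at 0.052, Cd68 at 0.24, Cxcr4 at 0.092, Lyz2 at 0.25, Nfkb2 at -1.54, Rela at -0.35 and Tyk2 at -0.21. Among short genes of low GC content, Ccl8 was at 0.12, Cxcr4 at 0.13 and Lyz2 at 0.14. With upper quartile normalization Cxcl12 was at -0.080 (adjusted p = 9.35e-04, edgeR), Tek at -0.11 and Vim at -0.092, and without a filter Cxcl12 was at -0.0034, Tek at -0.032 and Vim at -0.015. Leaving out 1 library moved Ccl8 from -0.86 to 0.050 and Tek to between -0.098 and 0.086. The cause was not tested. With 0.5 added to counts the log2 difference of the Ccl5 to Cxcl10 ratio (K68R minus WT) was 0.034 in place of -0.12, and without 1 library it ran from -0.47 to 0.37, the latter without K68R library 3. That of Cxcl5 to Cxcl1 ran from -0.086 to 0.028 and that of Ccl7 to Ccl2 from -0.34 to -0.30.

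Libraries of the same number did not deviate together (correlations -0.0095 to 0.0135), so the numbers do not pair them. With the number as a replicate block 13567 genes were called in place of 13613, and 7 chemokines in place of 7. Depth limited Ccl8, Ccl20 and the K68R levels of Ccl5 and Cxcl10.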

Other observations

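A neighbour of Cxcl10, the interferon-gamma induced chemokine Cxcl9, was chosen here after its values were seen. Its summed counts were 0 in K68R and 17 in WT. With the floor of 3 counts in place of the 0, that is 4.70-fold lower in K68R, a value that leaves out counting error. Cxcl14, a chemokine of skin and stromal cells also chosen after its values were seen, was at 24.3 ± 0.602 CPM in K68R against 43.9 ± 0.818 CPM in WT (SD, n = 3), a smaller fall (log2 fold change -0.85, adjusted p = 3.10e-27, edgeR) than that of Cxcl1 or Cxcl5.

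The genes of the inducing cytokines were near the limit of detection, and these too were chosen after their values were seen. Il1b had 0 counts in every library, and Tnf had 10 summed counts in K68R and 11 in WT. Il1a had 6 summed counts in K68R and 25 in WT, and its values did not overlap. The receptor genes Ccr2, with 1 summed count in K68R and 8 in WT, and Cxcr2, with 1 in each, were likewise too low to be tested.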
